A study of Homo sapiens with 4 samples.

Results

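miR-221 and miR-222 are sister microRNAs (miRNAs) cut from 2 hairpins of the same host transcript, MIR222HG, on the X chromosome. The members were the rows of the deposited miRNA count table that carry the names of the 2 arms of each hairpin: hsa-miR-221-3p, hsa-miR-221-5p, hsa-miR-222-3p and hsa-miR-222-5p, 4 of 2656 mature miRNAs. All 4 passed the filter on low counts that left 773 miRNAs for testing. They were measured by small RNA sequencing of HEK293T cells, a human embryonic kidney line that carries the SV40 large T antigen. Both groups carried a landing pad, a genomic site built to accept a transgene. The pad had the PGK promoter, from the phosphoglycerate kinase gene, in one group and the CAG promoter, a strong synthetic promoter, in the other. Each group had 2 libraries, from monoclonal lines, so the promoter and the clone cannot be told apart. The sources used here do not say whether replicates were separate cultures, so p-values measure the spread between these 4 samples, which may be technical.

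A miRNA hairpin yields a 5p and a 3p arm. One arm is usually loaded into Argonaute and kept, and the other is mostly degraded. The loaded arm pairs with messenger RNAs through its seed, bases 2 to 8 counted from its 5′ end, and lowers their translation and stability. miR-221-3p and miR-222-3p are known for acting on the cyclin-dependent kinase inhibitors p27 (CDKN1B) and p57 (CDKN1C), which hold cells back from dividing, and on the receptor KIT. They are abundant in many proliferating and tumour-derived lines, and in endothelium, where they restrain KIT.

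The 2 abundant arms are shown because they share their seed, in capitals here and in the other arm with a RefSeq sequence (GRCh38.p14, 3 of the 4 members matched).
miR-221-3p: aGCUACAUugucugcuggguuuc
miR-222-3p: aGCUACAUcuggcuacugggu
miR-222-5p: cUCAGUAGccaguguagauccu
The first 8 bases of miR-221-3p and miR-222-3p were identical. Set side by side from the 5′ end without gaps, 11 of 21 bases matched, and a gapped alignment matched 18 of 24 columns. Among 2370 mature human miRNAs of the sequence table, only these 2 had the seed GCUACAU. The seed of miR-222-5p was found in no other entry. The 3p arms are 23 and 21 bases long with a GC content of 47.8% and 52.4%. On GRCh38 miR-221-3p lies at chrX:45746180-45746202, miR-222-3p at chrX:45747036-45747056 and miR-222-5p at chrX:45747073-45747094, all on the minus strand.

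GENCODE release 29 (GRCh38) places the MIR221 hairpin at chrX:45746157-45746266 and the MIR222 hairpin at chrX:45747015-45747124. Both are 110 bases long and both lie within an intron of MIR222HG, a long intergenic non-coding RNA gene at chrX:45745211-45770274 on the minus strand. MIR222 is transcribed first, 23150 bases after the annotated start of the host, and 748 bases separate the hairpins. The deposited tables hold no coordinates, and no source used here names the build behind them, so hairpins were matched by name.

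The seed pairs with ATGTAGC in the DNA of a target's 3′ untranslated region (UTR), and a following A makes it an 8-base match. This 7-base match, searched on the transcribed strand only, was present in the 3′ UTR of 1386 of 19150 protein-coding genes (7.24%), 1 principal GENCODE transcript per gene. The 3′ UTR of CDKN1B, the p27 gene, held 2 matches. Of 2286 3′ UTRs whose length was within 20% of its 1344 bases, 6.34% held at least 1 and 0.262% at least 2. KIT held 2 as well, and CDKN1C held 1; in 3′ UTRs of like length 9.74% held a match for KIT and 3.6% for CDKN1C. The matches of the cell-cycle inhibitors and the first of KIT are shown with the match in capitals, since they are the letters the shared seed reads.
CDKN1B, chr12:12721221-12721242, plus strand: gcgttggATGTAGCattatgca
CDKN1B, chr12:12721294-12721315, plus strand: accttttATGTAGCacataaac
CDKN1C, chr11:2883821-2883842, minus strand: accgttcATGTAGCagcaaccg
KIT, chr4:54739580-54739601, plus strand: gattcttATGTAGCaggaaata
All 4 are followed by an A and are 8-base matches. A match is a stretch of letters, and no messenger RNA was measured here.

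Library totals ran from 2845945 to 13780279 reads assigned to miRNAs, with CAG replicate 2 the shallowest and CAG replicate 1 the deepest. Levels are given as CPM, read counts scaled to a common library total, here with TMM factors. At these depths miR-222-5p rested on 148 to 540 reads in a library and the other members on 3121 reads or more, and counting intervals and limits cover counting error only. Of the markers of other cell types, miR-223-3p, of blood, and miR-214-3p, of mesenchyme, had 0 reads in every library. Other mesenchymal markers were detected, miR-199a-3p with 153 to 408 reads in a library and miR-143-3p with 30 to 185. The mesenchymal marker miR-145-5p had 0 to 3 reads, miR-122-5p, of liver, 0 to 20, and miR-124-3p, of neurons, 0 to 3. The 5 blood markers summed to 0.871 to 2.46 CPM without TMM factors. On that scale the 5 miRNAs listed as abundant in HEK293T cells summed to 201781 to 220832 CPM. Most of this came from miR-10a-5p, miR-92a-3p and miR-10b-5p, while miR-16-5p stood at 1070 to 1392 CPM and miR-196a-5p at 1350 to 2261 CPM. The endothelial markers, also detected, are given further on.

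miR-221-3p was 1.67-fold lower in CAG than in PGK cells and was the member that passed the test. It stood at 30015 CPM in PGK replicate 1, 35305 in PGK replicate 2, 20898 in CAG replicate 1 and 18188 in CAG replicate 2. Both CAG libraries lay below both PGK libraries, and the gap between the groups was wider than the gap within either. PGK cells averaged 32660 ± 3740 CPM and CAG cells 19543 ± 1916 CPM (SD, n = 2). The log2 fold change, CAG minus PGK, was -0.74 (SE 0.15, 95% interval -1.08 to -0.40; edgeR quasi-likelihood test, Benjamini-Hochberg adjusted p = 0.0093 over 773 miRNAs). Of all tested miRNAs 6.08% were called lower at an adjusted p under 0.05 and 8.15% higher, against 1 and 0 of the 4 members by edgeR. In 27.4% of all tested miRNAs both CAG libraries lay below both PGK libraries, and 3 of the 4 members were among them; in 29.8% both CAG libraries lay above, with no member among them. miR-221-3p took 3.03% and 3.45% of all counts in the PGK libraries and 1.95% and 1.97% in the CAG libraries, which moved it from rank 6 in both PGK libraries to ranks 10 and 11 in the CAG libraries. The call was lost without PGK replicate 1 (adjusted p = 0.151) and without PGK replicate 2 (adjusted p = 0.202), with log2 fold changes of -0.87 and -0.63.

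miR-222-3p, with the same seed, was also lower in both CAG libraries, and the difference did not pass the test. Its levels were 20540 CPM in PGK replicate 1, 25115 in PGK replicate 2, 17221 in CAG replicate 1 and 11560 in CAG replicate 2. The groups did not overlap, but CAG replicate 1 lay closer to PGK replicate 1 than to CAG replicate 2. PGK cells averaged 22827 ± 3235 CPM and CAG cells 14390 ± 4003 CPM (SD, n = 2), a log2 fold change of -0.67 (SE 0.20, 95% interval -1.12 to -0.21; edgeR adjusted p = 0.057). Its share of counts was 2.07% and 2.46% in PGK and 1.61% and 1.25% in CAG libraries. The adjusted p crossed 0.05 in 6 of 16 alternatives: DESeq2, limma-voom, RLE scaling, library size scaling, and without either 1 of the CAG libraries. Without CAG replicate 1 the log2 fold change was -0.97 and without CAG replicate 2 it was -0.40. Without PGK replicate 1 it was -0.82 and without PGK replicate 2 it was -0.52. That miR-221-3p passed the threshold and miR-222-3p did not is no sign that they changed differently, and their ratio is compared further on.

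Neither minor arm passed the test. miR-221-5p, the passenger arm of the miR-221 hairpin, stood at 1715 CPM in PGK replicate 1, 1584 in PGK replicate 2, 1667 in CAG replicate 1 and 1012 in CAG replicate 2. CAG replicate 1 fell between the PGK libraries and CAG replicate 2 lay well below all of them, so the groups overlapped. The log2 fold change was -0.30 (SE 0.23, 95% interval -0.82 to 0.22; edgeR adjusted p = 0.435). CAG replicate 2 decided this value, which was 0.02 without it and -0.70 without CAG replicate 1 (edgeR adjusted p = 0.944 and 0.0054). miR-222-5p, the passenger arm of the other hairpin, stood at 54.9 CPM in PGK replicate 1, 75.3 in PGK replicate 2, 35.3 in CAG replicate 1 and 48.0 in CAG replicate 2. Here CAG replicate 1, not replicate 2, was the lowest library. The log2 fold change was -0.67 (SE 0.24, 95% interval -1.21 to -0.14; edgeR adjusted p = 0.096). It came to -0.42 without PGK replicate 2 and -0.43 without CAG replicate 1, and without CAG replicate 2 it was -0.87 (edgeR adjusted p = 0.012).

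**Figure D1:**
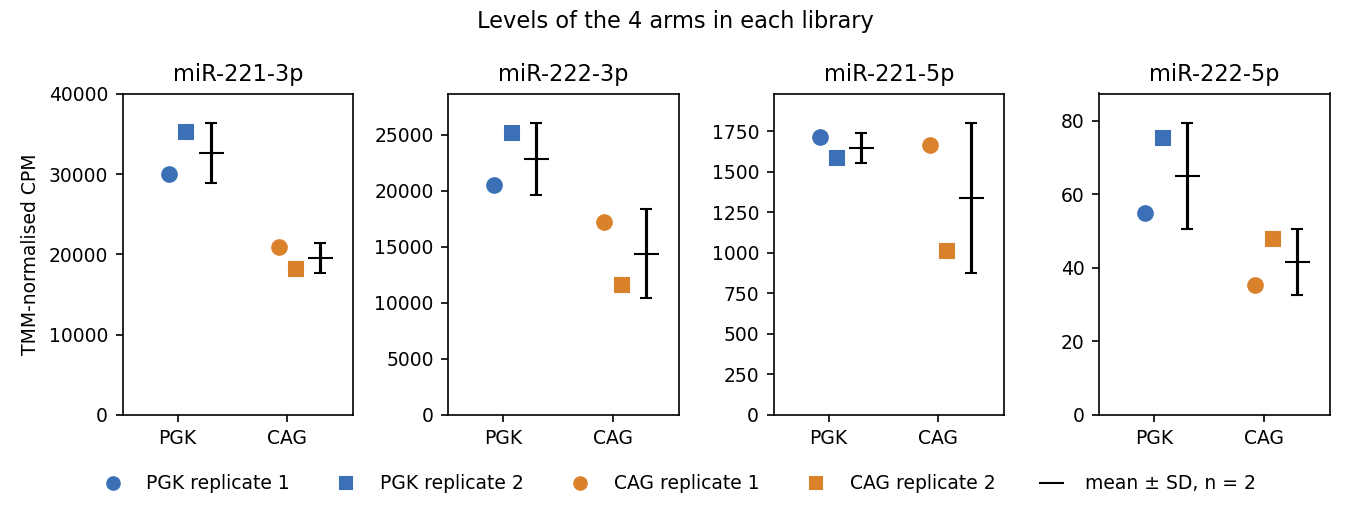
Level of each arm in TMM-normalised CPM (y axis, linear from 0) by group (x axis). Circles are replicate 1, squares replicate 2, and black marks the mean ± SD of 2 libraries. The CAG libraries sit below the PGK libraries for miR-221-3p, miR-222-3p and miR-222-5p, and CAG replicate 1 of miR-221-5p, at 1667 CPM, lies between the PGK libraries.

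The CAG libraries differed from each other by more than the PGK libraries did for miR-222-3p and miR-221-5p. On the log2 scale the CAG replicates were 0.57 apart for miR-222-3p and 0.72 apart for miR-221-5p, against 0.29 and 0.11 between the PGK replicates. For miR-221-3p the replicates were 0.20 apart in CAG and 0.23 in PGK cells. Over tested miRNAs averaging 100 CPM or more the median was 0.19 between CAG and 0.16 between PGK replicates, so all but 1 of these values for the 3 members lay above the median, the exception being the PGK value of miR-221-5p. miR-222-5p, at a lower level, was 0.44 apart in CAG and 0.45 in PGK.

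**Figure D2:**
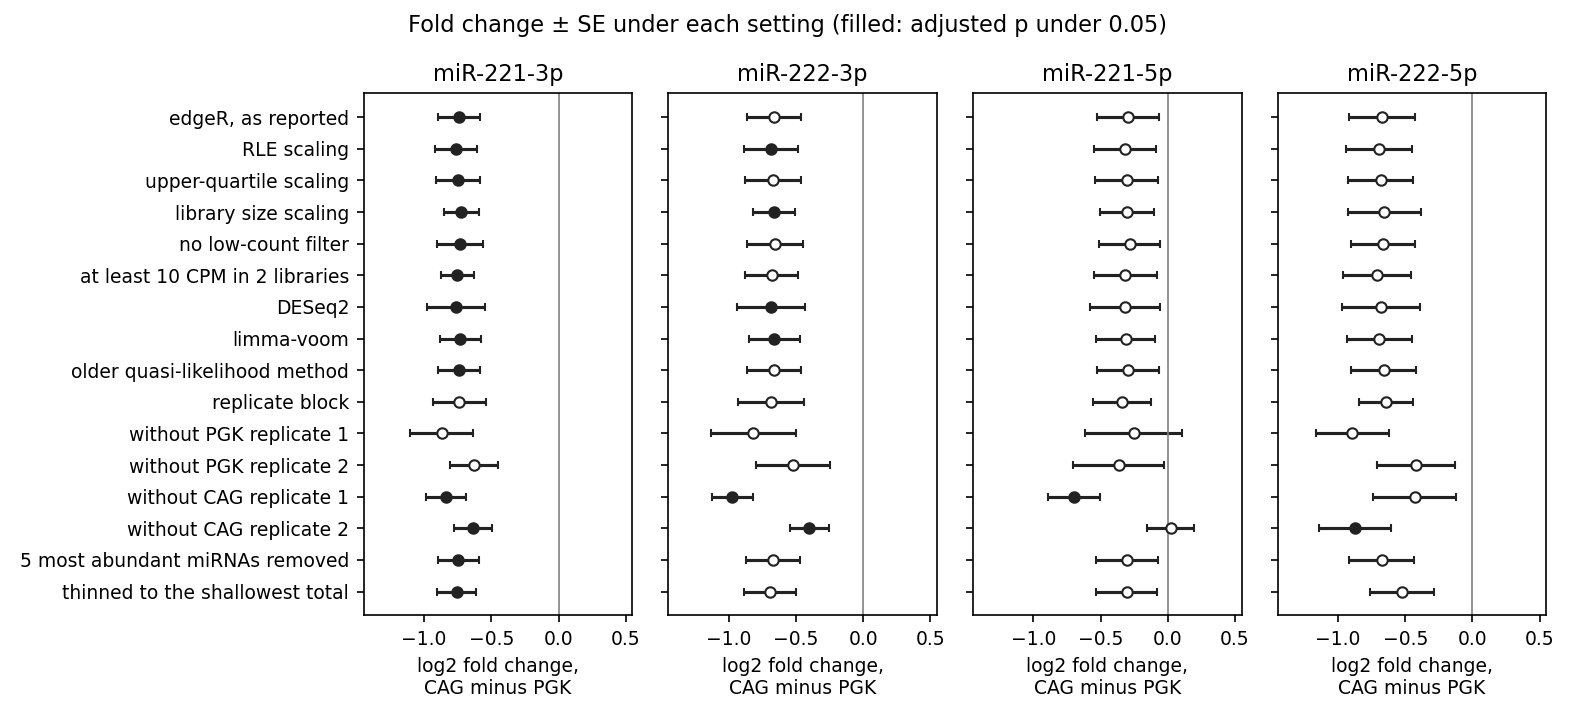
Log2 fold change, CAG minus PGK (x axis), with its SE for each arm under each setting (y axis); filled circles have an adjusted p under 0.05. miR-221-3p runs from -0.87 to -0.63 and stays below 0 in each setting, while miR-221-5p reaches 0.02 without CAG replicate 2.

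Both hairpins gave most of their reads from the 3p arm, to very different degrees. The 3p arm of miR-222 exceeded its 5p arm by ratios of 374 in PGK replicate 1, 334 in PGK replicate 2, 487 in CAG replicate 1 and 241 in CAG replicate 2. For miR-221 the ratios were 17.5 in PGK replicate 1, 22.3 in PGK replicate 2, 12.5 in CAG replicate 1 and 17.98 in CAG replicate 2. Every library thus had a ratio above 200 for miR-222 and below 25 for miR-221. Put as shares, the 3p arm held 92.6% to 95.7% of the reads of the miR-221 hairpin and 99.6% to 99.8% of those of miR-222. Among 178 hairpins with both arms tested, 86 had the 3p arm higher, and the median fold between the major and minor arm was 9.87. The arm ratio of miR-222 over mean CPM, 349, ranked 4 among all hairpins in the direction of 3p and 11 in either direction, between miR-183 and miR-30d, which both favour 5p. That of miR-221, 17.5, ranked 29 in the direction of 3p and 71 in either direction.

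**Figure D3:**
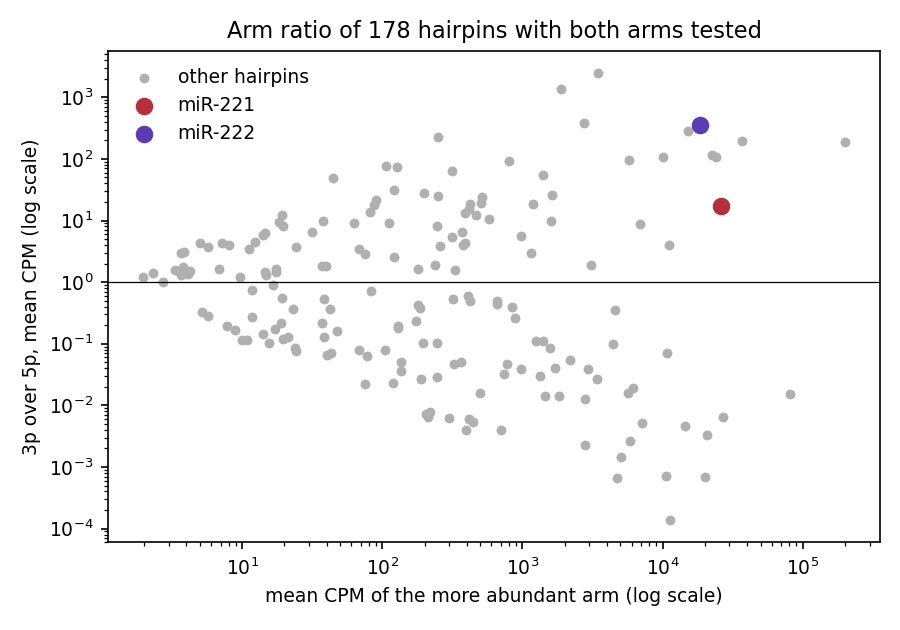
Ratio of the 3p to the 5p arm in mean CPM (y axis, log scale) against the mean CPM of the more abundant arm (x axis, log scale) for 178 hairpins; the line marks equal arms. miR-222, at 349, stands near the top of the plot and miR-221, at 17.5, below it at a similar abundance.

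The arm ratios did not pass a test of difference between the groups. For miR-221 the log2 ratio of 3p to 5p was lower in CAG by 0.44 on the fitted scale (value -0.44, SE 0.25; edgeR diffSpliceDGE adjusted p = 0.569 over 178 hairpins), and the groups overlapped because CAG replicate 2 exceeded PGK replicate 1. For miR-222 the difference was -0.0035 (SE 0.29, adjusted p = 0.99). It was -0.54 without CAG replicate 1, 0.07 without PGK replicate 1 and 0.47 without CAG replicate 2. That of miR-221 was -0.14 without CAG replicate 1, -0.26 without PGK replicate 2 and -0.66 without CAG replicate 2. No hairpin of the 178 was called by edgeR (0%), and 18 had an unadjusted p under 0.05. Leaving out PGK replicate 1 gave 6 calls among 192 hairpins and leaving out PGK replicate 2 gave 3 among 204, neither miR-221 nor miR-222 among them. The median size of the change over all hairpins was 0.24.

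miR-221-3p outnumbered miR-222-3p in every library. For each read of miR-222-3p there were 1.46 reads of miR-221-3p in PGK replicate 1, 1.41 in PGK replicate 2, 1.21 in CAG replicate 1 and 1.57 in CAG replicate 2. The CAG libraries held both the lowest and the highest ratio, with the PGK libraries between them. The mean ratio was 1.43 ± 0.0393 in PGK and 1.39 ± 0.254 in CAG cells (SD, n = 2). The difference in the log2 ratio, CAG minus PGK, was -0.05, smaller than the SD of 0.16 over the 4 libraries (exact permutation test, two-sided, p = 1, where 2 libraries against 2 allow no p below 0.333). It rested on the CAG libraries, and was 0.13 without CAG replicate 1 and -0.24 without CAG replicate 2. Counting error was far smaller than the spread between the CAG libraries: the exact 95% interval ran from 1.21 to 1.22 in CAG replicate 1 and from 1.55 to 1.59 in CAG replicate 2. The ratio of the passenger arms, miR-221-5p to miR-222-5p, varied more, at 31.2 in PGK replicate 1, 21.0 in PGK replicate 2, 47.2 in CAG replicate 1 and 21.1 in CAG replicate 2. These groups overlapped too (exact permutation test, two-sided, p = 0.667). The 4 ratios and that of the summed hairpins made 5 comparisons of this kind, none of which could pass 0.05.

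**Figure D4:**
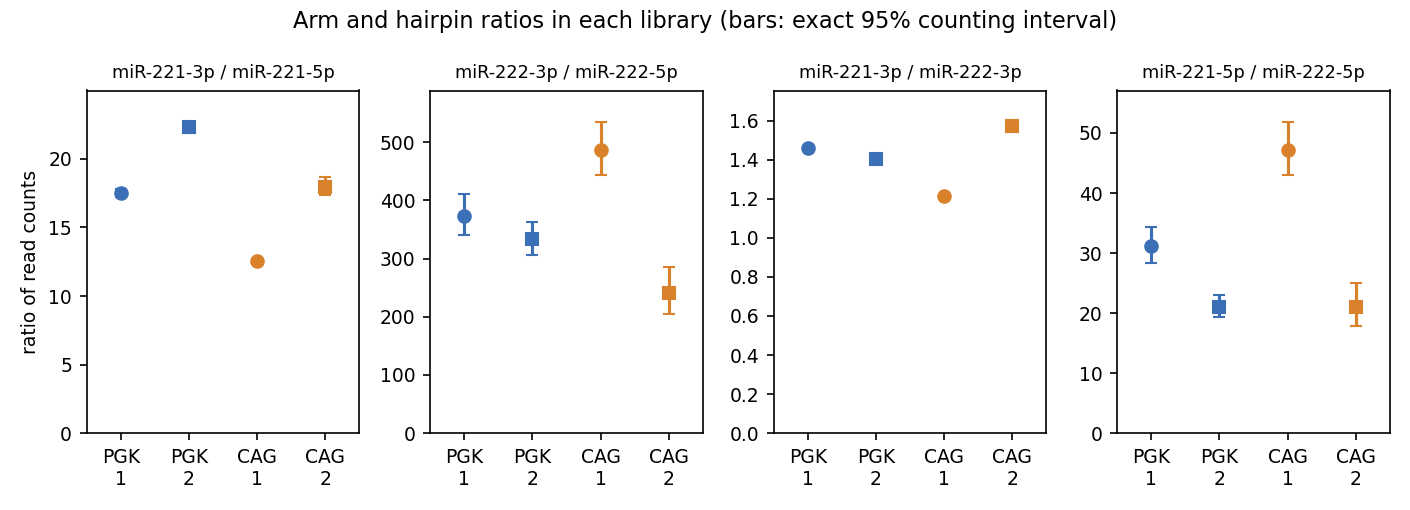
Ratios of read counts (y axes, linear from 0) in each library (x axis) for the arms of each hairpin, for the 3p arms and for the 5p arms; bars are exact 95% counting intervals. CAG replicate 1 has the lowest ratio of miR-221-3p to miR-221-5p, 12.5, and the highest of miR-222-3p to miR-222-5p, 487.

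All 4 arms together made up 5.27% of the counts in PGK replicate 1, 6.07% in PGK replicate 2, 3.72% in CAG replicate 1 and 3.34% in CAG replicate 2. Both CAG libraries lay below both PGK libraries. Within this sum miR-221-3p held 52.5% to 59.0%, miR-222-3p 37.5% to 43.2%, miR-221-5p 2.55% to 4.19% and miR-222-5p 0.0887% to 0.156%. The deposited table of seed families has 1 family with the seed GCUACAU. Its counts equalled the sum of miR-221-3p and miR-222-3p in every library, so it is not independent of them. The family fell by 0.74 on the log2 scale (SE 0.18, edgeR adjusted p = 0.0361 over 642 families). Of all families 10.4% were called, 4.67% lower and 5.76% higher. The family table had TMM factors of its own, so its CPM and fold change are not on the scale of the 2 arms. With library size scaling the log2 fold change was -0.70 for the family, -0.72 for miR-221-3p and -0.66 for miR-222-3p. With TMM factors the family stood at 51139 CPM in PGK replicate 1, 61230 in PGK replicate 2, 38039 in CAG replicate 1 and 29075 in CAG replicate 2. By counts it ranked 5 and 4 among the families in the PGK libraries, and 7 and 8 in the CAG libraries. The call was lost on leaving out either PGK library or CAG replicate 1, and also with upper-quartile scaling and without the low-count filter (edgeR adjusted p from 0.0531 to 0.284 over these). The family of miR-222-5p held that miRNA alone.

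Neighbouring hairpins on one strand often come from the same transcript, and the pair was set beside other such neighbours. Hairpins within 10000 bases of each other on the same strand gave 32 pairs in which each hairpin had an arm of its own, made by no other hairpin, averaging 10 CPM or more. The log2 fold changes of miR-221-3p and miR-222-3p differed by 0.075, rank 11 of 32 from the smallest, where the median pair differed by 0.14. With all libraries these were -0.74 and -0.67, without CAG replicate 1 they were -0.84 and -0.97, and without CAG replicate 2 they were -0.64 and -0.40, so their closeness rests on both CAG libraries. In 27 of the 32 pairs both fold changes had the same sign. The mean levels of miR-221-3p and miR-222-3p were within a factor of 1.4, against a median of 5.45 over the pairs, at rank 6 from the smallest. Both are the major arms of their hairpins, whereas an arm made by no other hairpin can be a minor arm. The largest factor among the pairs was 980, so levels were not compared like with like. Some hairpins also stood in more than 1 pair. MIR224 and MIR452, also on the X chromosome and 969 bases apart, are a pair in which miR-224-5p and miR-452-5p both fell, by 3.14 and 2.84 on the log2 scale.

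**Figure D5:**
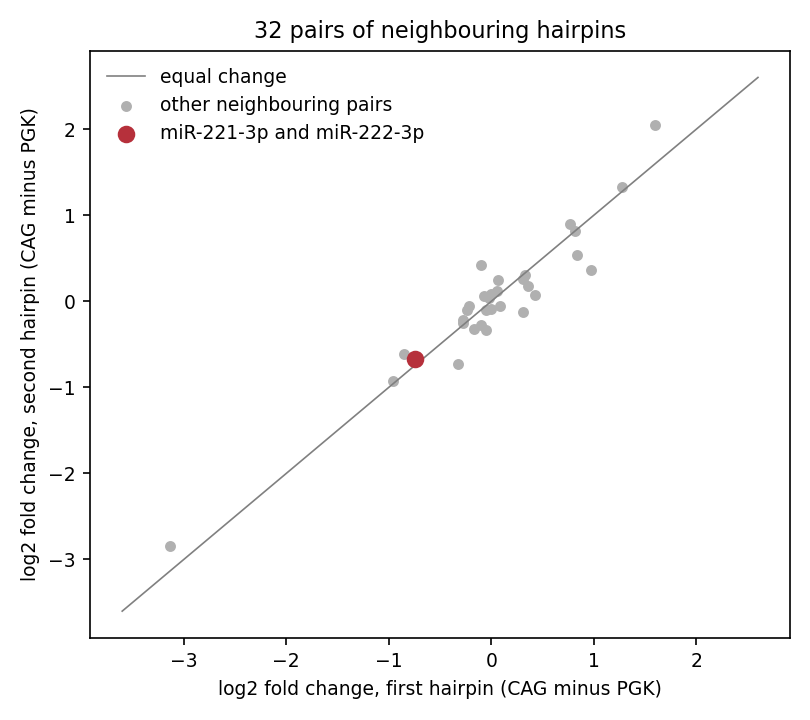
Log2 fold change, CAG minus PGK, of the arm used for the first hairpin (x axis) and the second hairpin (y axis) of 32 neighbouring pairs; the line marks equal change. miR-221-3p and miR-222-3p, at -0.74 and -0.67, lie close to the line.

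The miRNAs most like each 3p arm across the libraries were found by the distance between log2 CPM values centred on each miRNA's mean, among 219 others averaging 100 CPM or more. This is a description over 4 libraries that share their scaling. Closest to miR-221-3p were miR-708-5p, miR-1180-3p, miR-340-5p, miR-375-3p and miR-192-5p, at distances of 0.194 to 0.241, where the median miRNA was at 0.821. Their log2 fold changes were -0.76, -0.59, -0.57, -0.53 and -0.96, and all but miR-375-3p were called lower. They were chosen on the same library values, so fold changes near that of miR-221-3p follow from the choice and are no separate result. Of the 219, 10 were closer to miR-221-3p than miR-222-3p was, at 0.273. Closest to miR-222-3p were miR-618, miR-30d-5p, miR-340-3p, miR-146b-5p and miR-1301-3p. Like miR-222-3p, each of these had its lowest value in CAG replicate 2, a trait that the choice by closeness favours. miR-618 stood at 290 CPM in PGK replicate 1, 316 in PGK replicate 2, 235 in CAG replicate 1 and 158 in CAG replicate 2. By level, miR-221-3p was number 7 of the tested miRNAs over all libraries, after miR-10b-5p at 27166 CPM and before miR-151a-3p at 24213 CPM. miR-222-3p was number 13, at 18609 CPM, next to miR-26a-5p at 18631 CPM. miR-221-5p was number 63 and miR-222-5p number 272.

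The following lists give the surroundings of the pair, with 14.2% of all 773 tested miRNAs called in either direction and a median log2 fold change of -0.0042. Of 12 other miRNAs known to act on the kinase inhibitors CDKN1A, CDKN1B or CDKN1C, 1 rose, with a median of -0.11 that ran from -0.19 without CAG replicate 1 to -0.05 without PGK replicate 2. None was called lower, whether with edgeR, limma-voom or DESeq2, where 1 in each had an unadjusted p below 0.05 and a lower level. Without CAG replicate 2 the count lower was 1, and without either PGK library the count higher was 0. The riser was miR-181a-5p, 1.67-fold, from 305 ± 9.7 to 510 ± 37.7 CPM (SD, n = 2; edgeR adjusted p = 0.0214). miR-148a-3p, the most abundant miRNA of these cells, had a log2 fold change of 0.07, miR-25-3p one of -0.27, miR-20a-5p one of -0.10 and miR-17-5p one of 5.5e-05. None of these 4 was called. Of 20 tested miRNAs known as brakes on proliferation, 1 rose and 2 fell, with a median of 0.22. The median was 0.13 without CAG replicate 2, 0.13 after thinning to equal totals and 0.11 with a filter of 10 CPM in 2 libraries. Without either PGK library the counts higher and lower were 0 and 1, without CAG replicate 1 they were 1 and 1, and without CAG replicate 2 they were 3 and 2. miR-34a-5p, a transcriptional target of p53, fell by 2.57, miR-424-5p, of the miR-15/16 seed group, fell by 0.75, and miR-143-3p, a low-level miRNA of smooth muscle and mesenchyme, rose by 1.32 on that scale. miR-26a-5p and let-7f-5p, let-7g-5p and let-7a-5p, the most abundant of the list, were not called, with log2 fold changes of 0.06, 0.29, 0.42 and 0.05.

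The pair was also set beside a list of 69 other X-linked miRNAs, of which 51 were tested. The list does not cover the whole chromosome and leaves out, for example, miR-500b-3p. Of the 51, 7 rose and 4 fell. With limma-voom 8 rose and 4 fell, and with a filter of 10 CPM in 2 libraries, 5 rose and 3 fell among 39 tested. The median log2 fold change of the list was -0.08 and ran from -0.11 to 0.04 over the alternatives. Fallers with the pair's direction included miR-503-5p, by 0.85, and miR-224-5p, by 3.14. Risers included miR-361-3p, by 0.87, and miR-504-5p, from 105 ± 1.48 to 225 ± 6.14 CPM (SD, n = 2). The CAG libraries were far apart for miR-361-3p, which went from 811 ± 68.9 to 1484 ± 584 CPM (edgeR adjusted p = 0.0477). miR-105-5p and miR-767-5p also rose, from means of 0.522 and 0.188 CPM in PGK cells to 651 and 270 CPM in CAG cells. miR-532-5p, miR-374b-5p, miR-450b-5p and miR-374a-5p, the most abundant uncalled members, stood at -0.23, -0.12, 0.37 and 0.20 on the log2 scale. Since miR-221 and miR-222 are abundant in endothelium, the endothelial markers are given beside them. Both miR-126 arms were detected and summed to 1531 to 1784 CPM in PGK and 1156 to 1194 CPM in CAG libraries, lower in CAG like the pair, and their part in the result was not tested. The 4 mesenchymal markers summed to 24.8 to 29.9 CPM in PGK and 43.1 to 64.3 CPM in CAG libraries, the other direction. This sum was mostly miR-199a-3p, which was higher in both CAG libraries, as was miR-143-3p. miR-145-5p, at 0 to 3 reads, was lower in both, and miR-214-3p had 0 reads.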

How the data were processed

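Small RNA was sequenced from 4 HEK293T libraries, grouped by their sample titles. Per the labels' protocols, cells were scraped below confluence, total RNA was taken with Trizol, and the NEBNext Small RNA kit was used for library preparation. The authors deposited whole-number read counts for 2656 miRNAs and 2094 seed families, 1 column per library. Trimming, aligner, annotation and build: not given in the sources used here. The 2 tables' totals differed by at most 19 reads.

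Counts were tested with edgeR 4.0.16 in R 4.3.3 (quasi-likelihood, robust, group alone, TMM factors 0.935 to 1.08, default filter with a minimum count of 10 and a minimum total of 15). Standard errors (SE) were taken as log2 fold change over the square root of F. P-values were adjusted by Benjamini-Hochberg over all features, threshold 0.05. Arm ratios were tested with edgeR's diffSpliceDGE on its older quasi-likelihood fit, which was chosen after the newer fit gave standard errors that did not match its fold changes. Ratios used exact permutation tests (scipy 1.17.1) and Clopper-Pearson intervals. The distance used log2 CPM plus 0.5. Python 3.11.15 with Biopython 1.88 aligned the sequences, scoring 1 for a match. Scripts were tested on simulated data.

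Alternatives were other scalings, filters, DESeq2 1.42.0, limma-voom (3.58.1), a block for the replicate number, the older quasi-likelihood method, omission of each library, the 5 most abundant miRNAs removed, thinning to 2845945 reads, and an adjusted p under 0.01. The members, lists and naming rule were chosen with earlier results of these data known. By that rule the 4 members, the 5 miRNAs most like each 3p arm, neighbours by level or arm ratio, and the most abundant called and uncalled list members are named. miR-452-5p is named as the partner of miR-224-5p, chosen after its values were seen. X-linked positions were checked for 62 of 69 listed miRNAs, all on X.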

Additional observations from a re-analysis of the deposited data

How the results depend on the processing

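The 4 members kept a log2 fold change below 0 in CAG under 16 alternatives each, except miR-221-5p, which came to 0.021 without CAG replicate 2. Leaving out 1 library each gave -0.87 to -0.63 for miR-221-3p, -0.97 to -0.40 for miR-222-3p, -0.70 to 0.02 for miR-221-5p, -0.89 to -0.42 for miR-222-5p and -0.96 to -0.58 for their family. The arm ratio gave -0.66 to -0.14 for miR-221 and -0.54 to 0.47 for miR-222, where the sign turned without PGK replicate 1 (0.07) and CAG replicate 2. The log2 ratio of miR-221-3p to miR-222-3p gave -0.24 to 0.13. Then 10 to 85 miRNAs were called higher, 6 to 78 lower, and 0 to 3 of the 4 members lower. With 1 library in a group, it is assumed to vary like the other group.

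The same replicate number carried no stated pairing, and deviations of same-numbered libraries from their group means had a correlation of -0.015. With the replicate block miR-221-3p lost its call (-0.74, edgeR adjusted p = 0.0618), as did the family (-0.75, adjusted p = 0.185); 40 miRNAs were called higher, 23 lower and 0 of the members, and 1 hairpin for its arm ratio, and the cause was not tested. miR-222-3p gained a call with RLE scaling (-0.69), library size scaling (-0.66), DESeq2 (-0.69) and limma-voom (-0.66), which made 2 members called lower in each. The family lost its call with upper-quartile scaling (-0.77) and without the low-count filter (-0.76). A filter of 10 CPM in 2 libraries left 39 miRNAs called higher, from fewer tested, and 1 of 93 hairpins called, thinning left 40 higher, and a threshold of 0.01 left 32 higher and 17 lower. Depth limits miR-222-5p most.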
